A study of Caenorhabditis elegans with 2 samples.

Results

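The respiratory chain and ATP synthase genes were 48 of the 19985 protein-coding genes of Caenorhabditis elegans in the Ensembl annotation of the WBcel235 assembly. They were chosen by name alone, as genes whose names start with nuo-, nduf-, sdh, ucr-, cyc-, cox-, atp-, asb- or asg-. By name, 12 belonged to complex I, 4 to complex II, 6 to complex III and 2 to the cytochrome c carrier. Complex IV had 7, complex V, which is the ATP synthase, had 9, and 8 further cox- genes carry the names of assembly factors. The data were chromatin immunoprecipitation followed by sequencing (ChIP-seq) of CEH-82, a homeobox protein, fused to eGFP. Whole L3 larvae of mixed sex were used, from strain OP212, which is unc-119(ed3) III; ddEx58. Both samples were biological replicates of this 1 group. No other genotype, stage or treatment was analysed here, and no cell types were separated, so binding in a few cells and weak binding in many cannot be told apart.

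The respiratory chain passes electrons from NADH and succinate to oxygen and pumps protons across the inner mitochondrial membrane, and the ATP synthase uses the returning protons to make ATP. Most subunits are encoded in the nucleus and imported, while a small core is encoded in mitochondrial DNA, so the complexes are built from both genomes. In Caenorhabditis elegans, reduced function of several of these subunits slows development and can lengthen life.

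The authors deposited 4 peak lists on the ce11 build that were used here. A list of 748 reproducible peaks was made from both replicates by the irreproducible discovery rate, a measure of how well ranked peaks recur. Candidate lists, which mix peaks with background, held 30000 entries for the pooled replicates, 30000 for replicate 1 and 22611 for replicate 2. Each entry has a signal value set by the authors, in units that no label or file header states. Values were read within a list, apart from ratios of replicate 1 to replicate 2, which describe the deposited values only. A gene had a peak or an entry when a summit, the entry's highest point, lay from 500 bp upstream to 100 bp downstream of its start. Read totals were not used, so the depth of each library is unknown.

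A reproducible peak lay at the start of 7 of the 48 genes, or 14.6%, against 477 of all 19985 protein-coding genes, or 2.39%. The 7 were nduf-11 of complex I, cox-5A and cox-5B of complex IV, asb-2, atp-1 and atp-2 of complex V, and the assembly factor cox-14. The strongest 748 entries of the pooled list gave the same 7 genes, and likewise 477 of all protein-coding genes. A reproducible peak here thus goes with a high pooled signal and need not be strong in each replicate. In the pooled candidate list, 29 of the 48 had an entry (60.4%), against 25.5% of all protein-coding genes. Replicate 1 had an entry at 28 of them (58.3%), against 24.6% of all genes, and replicate 2 at 25 (52.1%), against 19% of all genes. An entry in both replicates was found at 23 of the 48 (47.9%), against 9.86% of all genes. No entry in any list was found at 16 of the 48, against 12668 of all 19985. In each replicate alone, the share with an entry was also higher among the 48 when only its strongest 748 entries were taken. Replicate 1 then held 8 of the 48 (16.7%), against 2.31% of all genes, and replicate 2 held 6 (12.5%), against 2.12%. The genes form a named list picked with earlier results of these data known, so these shares are descriptions and carry no test.

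**Figure D1:**
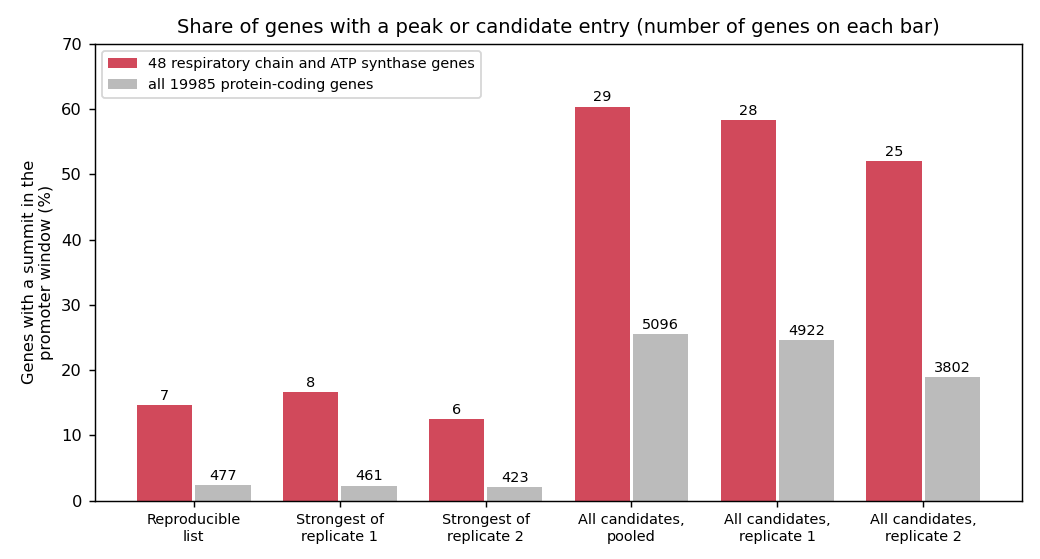
Percentage of genes with a summit in the promoter window, in each of the 3 thresholded and 3 full lists, for the 48 respiratory chain and ATP synthase genes (red) and all 19985 protein-coding genes (grey), with the number of genes above each bar. The red bar is the taller of the pair in every list, with 7 of 48 genes against 477 of 19985 in the reproducible list.

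The sequences around 5 of the 7 summits are given here, since these stretches are where the signal at the genes was highest. Each line has 101 bases centred on the summit, 5′ to 3′ on the gene's strand, from the RefSeq WBcel235 (ce11) genome. Capitals mark matches on either strand to the words CTGCGTC and GTCTC, to the GC-rich words TGCGC and also GCGCGC, or to the repeat GAGAGAG, all taken from earlier results of these data. The stretches are chrII:11345747-11345847 (minus strand) for nduf-11, chrIII:12905141-12905241 (plus) for cox-5A, chrX:4469438-4469538 (plus) for asb-2, chrIII:5228186-5228286 (plus) for atp-2 and chrIII:10218714-10218814 (plus) for cox-14.
nduf-11: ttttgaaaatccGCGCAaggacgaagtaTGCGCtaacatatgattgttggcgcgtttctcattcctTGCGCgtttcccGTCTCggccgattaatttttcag
cox-5A: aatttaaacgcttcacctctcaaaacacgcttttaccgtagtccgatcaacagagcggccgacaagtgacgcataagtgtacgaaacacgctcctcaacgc
asb-2: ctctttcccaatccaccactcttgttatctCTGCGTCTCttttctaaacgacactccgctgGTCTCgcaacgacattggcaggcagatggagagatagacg
atp-2: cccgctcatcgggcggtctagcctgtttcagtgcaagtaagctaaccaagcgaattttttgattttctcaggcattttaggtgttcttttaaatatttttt
cox-14: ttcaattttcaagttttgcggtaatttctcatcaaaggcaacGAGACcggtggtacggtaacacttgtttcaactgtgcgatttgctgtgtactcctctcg
None of the 5 words was present in all 5 sequences. The asb-2 stretch holds CTGCGTC, which there runs on into GTCTC, and a separate GTCTC. The nduf-11 stretch holds TGCGC at 3 places and GTCTC at 1, and that of cox-14 holds GTCTC at 1. The stretches of cox-5A, which had the highest signal of the 48 genes, and of atp-2 held none of the 5 words.

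Over all 7 summits, GTCTC was within 50 bp of the summit at 4, against 39.7% of all 748 reproducible summits. CTGCGTC was there at 1 of 7 (13.5% of all summits) and TGCGC at 1 of 7 (34.9%). GCGCGC and GAGAGAG were at 0 of 7, against 11.4% and 13.8% of all summits. The short homeodomain core word TAAT was within 50 bp at 3 of 7, against 33.6% of all summits. In the whole promoter windows, TGCGC was in 27 of the 48 (56.3%), against 31.0% of all protein-coding genes' windows, and GTCTC in 29 of 48 (60.4%), against 54.1%. CTGCGTC was in 2 of the 48 windows (4.17%), against 7.23%, and GAGAGAG also in 2 (4.17%), against 10.8%. GCGCGC, which can overlap TGCGC, was in 4 windows (8.33%), against 5.95%, and TAAT was in all 48, against 99.6% of all windows. Base composition at the summits was alike, with 48.7% ± 6.09 G and C (SD, n = 7) at these genes and 48.5% ± 7.89 (SD, n = 748) over the reproducible list.

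Complex I, the NADH dehydrogenase where electrons from NADH enter the chain, had 1 reproducible peak among its 12 genes. The share over all protein-coding genes was 2.39%. The peak was at nduf-11 (WBGene00007192, chrII, peak 11345627 to 11345966), 177 bp upstream of the gene start. The signal at nduf-11 was 41.9 in replicate 1 and 15.9 in replicate 2, and 57.1 in the pooled list, where it ranked 144th. Both replicates thus placed it among their strongest 748 entries. Pooled candidate entries lay at 6 of the 12 genes, against 25.5% of all protein-coding genes, and the next highest were far weaker. At nuo-1, which encodes the flavoprotein that accepts electrons from NADH, the pooled signal was 15.5, with 13.6 in replicate 1 and 3.55 in replicate 2. At nuo-2, an iron-sulfur protein subunit of the peripheral arm, it was 12.1, with no entry in replicate 1 and 8.15 in replicate 2. At nduf-7, another subunit of the electron-transferring arm, it was 11.7, with 3.96 in replicate 1 and 4.83 in replicate 2. The other 6 genes, nduf-2.2, nduf-5, nuo-3, nuo-4, nuo-5 and nuo-6, had no entry in any of the 4 lists.

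The name rule leaves out complex I subunits with the newer prefixes ndua-, ndub-, nduc-, ndus- and nduv-, and these 19 genes were added after the data were seen. Of the 19, 3 had a reproducible peak, against 2.39% of all protein-coding genes, and 12 had a pooled entry, against 25.5%. The pooled signal was 55.8 at ndua-8, 46.1 at ndub-8 and 27.0 at nduv-3, the last just above the list's lowest value of 26.9. At ndua-8 the replicates had 43.0 and 13.9, at nduv-3 20.3 and 6.22. At ndub-8 replicate 1 had 41.7 at −185 bp from the start, near the pooled summit at −199 bp. The strongest entry of replicate 2 in that window, 4.45, lay at −437 bp and so away from this peak. With these genes complex I had 4 peaks among 31 genes.

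Complex II, succinate dehydrogenase, which also works in the citric acid cycle, had no reproducible peak at its 4 named genes. Of all protein-coding genes, 2.39% had one. The flavoprotein genes were sdha-1, with a pooled signal of 19.8 (11.8 in replicate 1, 7.93 in replicate 2), and sdha-2, with 8.54 (5.01 and 2.46). The iron-sulfur subunit gene sdhb-1 had 6.06 in the pooled list and no entry in either replicate. The membrane anchor gene sdhd-1 had no entry in any list. The other membrane anchor, mev-1, whose mutants are hypersensitive to oxidative stress, falls outside the name rule and did have a reproducible peak. Its pooled signal was 41.1, with 34.2 in replicate 1 and 8.75 in replicate 2, and the summit lay 143 bp upstream of its start. That summit also lay in the window of jmjd-4, which starts 259 bp away in the other direction.

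Complex III, the cytochrome bc1 complex that passes electrons from ubiquinol to cytochrome c, had no reproducible peak at its 6 genes but a pooled entry at 5. The shares over all protein-coding genes were 2.39% and 25.5%. The highest entry was at cyc-1, which encodes cytochrome c1, with 21.3 in the pooled list. There the replicates had 19.2 and 2.09, the second close to the lowest value of that list, which was 2.00. At ucr-2.2 and ucr-2.1, which encode core proteins, the pooled signals were 19.4 and 18.7. ucr-2.2 had 13.7 in replicate 1 and no entry in replicate 2, and ucr-2.1 had 13.5 and 4.03. The median pooled signal over the 5 genes was 18.7, against 8.83 over all protein-coding genes with a pooled entry. The lowest of the 5 was 8.85 at ucr-11. All 5 lay below 26.9, the lowest value of the reproducible list. The cytochrome c genes cyc-2.1 and cyc-2.2, which encode the mobile carrier between complexes III and IV, had no entry in any list.

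Complex IV, cytochrome c oxidase, where oxygen is reduced, had a reproducible peak at 2 of its 7 genes and a pooled entry at 4. Among all protein-coding genes the shares were 2.39% and 25.5%. cox-5A (WBGene00012553, chrIII, peak 12905085 to 12905278) had 103 in replicate 1, 42.0 in replicate 2 and 146 in the pooled list, where it ranked 22nd of 30000. Its summit was 300 bp upstream of the start, and the peak was 194 bp wide, against 340 bp for most entries of the list. cox-5B (WBGene00000371, chrI, peak 9788527 to 9788866) had 32.7 and 14.5 in the replicates and 46.7 in the pooled list, with the summit 28 bp upstream. The genes without a peak were well below these, with pooled signals of 12.4 at cox-6C (8.52 and 4.03 in the replicates) and 9.30 at cox-4 (6.66 and 3.33). At cox-6A, the nearest reproducible summit, with a signal of 57.9, was 771 bp upstream of the start and so outside the window. cox-6B, chosen here after its values were seen, has a second annotated transcript start 86539 bp downstream of the first. A reproducible peak with a signal of 41.1 lay at −142 bp from that second start, with 33.8 in replicate 1 and 7.63 in replicate 2.

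Complex V had a reproducible peak at 3 of its 9 genes and a pooled entry at 7, against 2.39% and 25.5% of all protein-coding genes. The catalytic head is made mainly of the alpha and beta subunits, encoded by atp-1 and atp-2, and both genes had a peak. atp-1 (WBGene00010419, chrI, peak 12652122 to 12652461) had 51.1 in replicate 1, 17.9 in replicate 2 and 69.5 pooled, with the summit 15 bp downstream of the start. atp-2 (WBGene00000229, chrIII, peak 5228066 to 5228405) had 23.6, 8.81 and 28.3, with the summit 181 bp upstream. asb-2 (WBGene00000207, chrX, peak 4469318 to 4469657), for subunit b of the stalk, had 21.4, 11.4 and 33.6, with the summit 278 bp upstream. Each replicate alone placed these 3 genes within its strongest 748 entries. asb-2 was near that limit in replicate 1, at rank 734, and atp-2 ranked 684th in replicate 2. Below the threshold, atp-3, for the stalk subunit OSCP, had 24.1 pooled (16.7 and 5.31 in the replicates). asg-2, for subunit g, had 23.02 pooled and 21.2 in replicate 1 but no entry in replicate 2, and it was among the strongest 748 of replicate 1. atp-5, for subunit d, had 13.4 pooled (8.69 and 3.81).

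Among the assembly factors, which insert the haem and copper centres of complex IV or build it in other ways, 1 of 8 had a reproducible peak. The share was 2.39% over all protein-coding genes. cox-14 (WBGene00011875, chrIII, peak 10218594 to 10218933) had 22.2 in replicate 1, 3.52 in replicate 2 and 30.4 pooled, with the summit 178 bp upstream. Of the 7 peaks this was the one that rested mainly on 1 library: it ranked 680th in replicate 1 and 8533rd in replicate 2. cox-10, which makes haem O, had 24.7 pooled, with 19.5 and 3.25 in the replicates. cox-16 had 5.98 pooled with no entry in either replicate, and cox-11, a copper chaperone, had 4.98 (5.26 and 2.32), close to the lowest pooled value of 4.94. The weakest of the 7 peaks were atp-2 at 28.3, cox-14 at 30.4 and asb-2 at 33.6, against a lowest value of 26.9 in the reproducible list. asb-2 ranked 483rd of 748 in that list, but 734th in replicate 1 and 401st in replicate 2. The strongest genes without a peak were cox-10 at 24.7, atp-3 at 24.1 and asg-2 at 23.02.

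**Figure D2:**
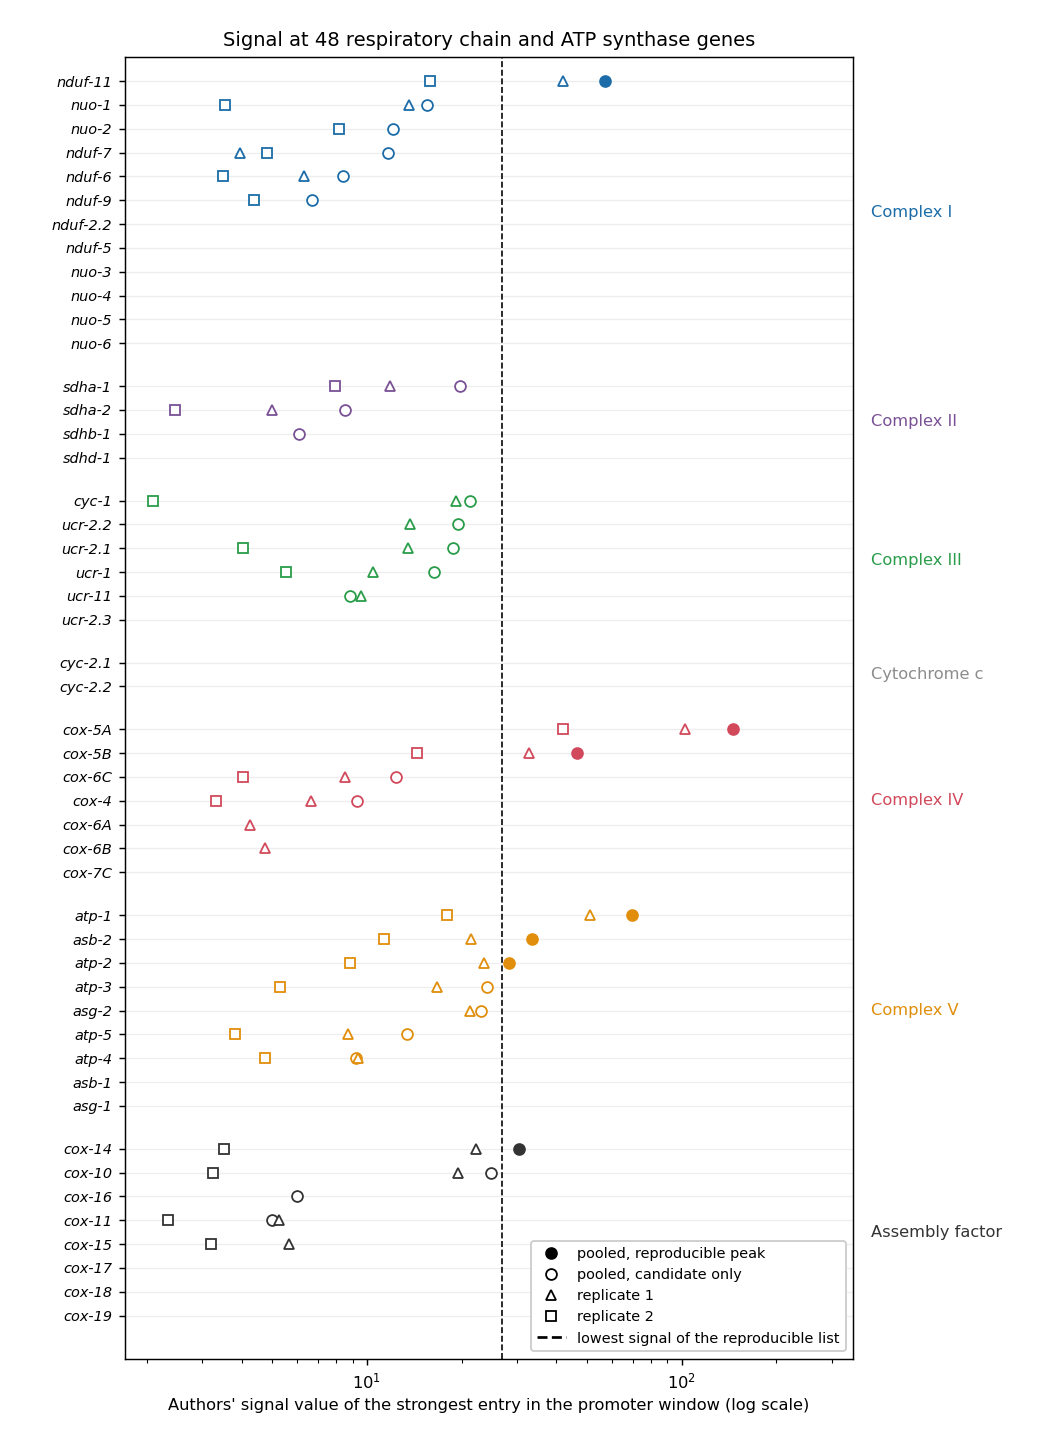
Authors' signal value (horizontal log axis) of the strongest entry in the promoter window of each of the 48 genes, by complex; circles are the pooled list (filled where the entry is a reproducible peak), triangles replicate 1 and squares replicate 2. The 7 filled circles run from 28.3 at atp-2 to 146 at cox-5A, right of the dashed line at the lowest reproducible signal, and 16 genes have no symbol. The dashed line applies to the circles only.

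Set side by side, the shares with a reproducible peak were 1 of 12 in complex I, 0 of 4 in II, 0 of 6 in III, 2 of 7 in IV and 3 of 9 in V. The shares with a pooled entry were 6 of 12, 3 of 4, 5 of 6, 4 of 7 and 7 of 9. Over all protein-coding genes, 2.39% had a reproducible peak and 25.5% a pooled entry. Median pooled signals among genes with an entry were 11.9 in complex I, 8.54 in II, 18.7 in III, 29.5 in IV and 24.1 in V. Over all 29 of these genes the median was 16.4, against 8.83 over all protein-coding genes with an entry. The order of the complexes by median changed with the list. In replicate 1 alone the medians were 9.98 in complex I, 8.42 in II, 13.5 in III, 7.59 in IV and 21.2 in V, so that complex IV was highest in the pooled list and lowest there. In replicate 2 alone they were 4.605, 5.19, 4.03, 9.25 and 7.06. Complex IV had 4 genes with a pooled entry and 6 with one in replicate 1, so its median rests on different genes in each list. No order of the complexes by signal is drawn from these few genes.

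Among genes with an entry in both lists, the replicates' strongest entries per window were ranked partly alike. The deposited values were mostly higher in replicate 1. Whether the 2 lists share a scale is not stated. Over the 23 genes with an entry in both, Spearman's rho of the signal was 0.638 and Pearson's r of its log2 was 0.793, against 0.565 and 0.673 over the 1970 protein-coding genes in both. These are correlations across genes that share 2 libraries and they carry no p. The median ratio of replicate 1 to replicate 2 was 2.26 at these genes and 2.29 over all genes. At 6 of the 7 genes with a peak the ratio ran from 1.89 (asb-2) to 2.85 (atp-1), while at cox-14 it was 6.29. Summits of both replicates lay a median of 56 bp apart at these genes and 64 bp apart over all genes. The gap was 3 bp at atp-1, 143 bp at atp-2 and 383 bp at most. It was 100 bp or less at 14 of the 23 genes (60.9%), against 63.0% of all genes with both entries. At the others the 2 values compared may belong to different sites. Of the 48 genes, 5 had an entry in replicate 1 alone and 2 in replicate 2 alone. Among all 19985 protein-coding genes, 2952 had an entry in replicate 1 alone and 1832 in replicate 2 alone.

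**Figure D3:**
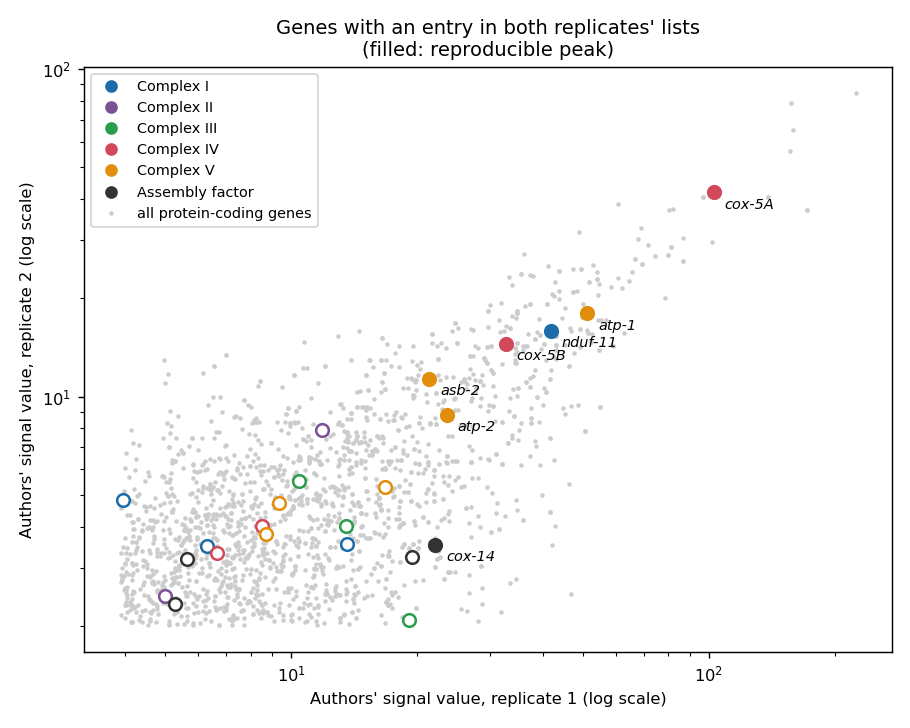
Authors' signal in replicate 1 (horizontal, log scale) and replicate 2 (vertical, log scale) for genes with an entry in both lists, coloured by complex over all protein-coding genes (grey), with filled points for reproducible peaks. Of the 7 named genes, 6 lie towards the upper right, up to cox-5A at 103 and 42.0, and cox-14 lies low at 22.2 and 3.52.

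In 4 gene families of the list, the members differed. asb-2 had a reproducible peak, whereas asb-1, its germline counterpart for subunit b, had no entry in any list. asg-2 had a pooled signal of 23.02 and asg-1 no entry. sdha-1 had 19.8 and sdha-2 8.54, and ucr-2.1 and ucr-2.2 had 18.7 and 19.4 while ucr-2.3 had no entry. In these 4 families, picked for their values, the genes with the higher signal lie on the X chromosome. The cytochrome c pair, cyc-2.1 and cyc-2.2, lies on autosomes and had no entry in any list. All 5 of the X-linked genes, asb-2, asg-2, sdha-1, ucr-2.1 and ucr-2.2, had a pooled entry. The share was 60.4% over all 48 genes and 26.1% over all protein-coding genes on X. Pooled signals at the 5 genes were 18.7 to 33.6, above the median of 7.89 for all X-linked genes with an entry. Of the 5, asg-2 and ucr-2.2 had no entry in replicate 2. The pathway genes outside the name rule did not group in this way. The X-linked gas-1 of complex I had no pooled entry and 4.35 in replicate 1, and the X-linked mai-1, like its paralog mai-2, had no entry. In the ant-1 family the gene with a peak, ant-1.1, lies on chromosome III. The grouping on X was seen in the values and then described, so it has no test.

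The summits with a peak lay from 300 bp upstream (cox-5A) to 15 bp downstream (atp-1) of the gene start. A protein-coding gene starting in the opposite direction within 1000 bp upstream was found at 21 of the 48 genes (43.8%), against 17.7% of all protein-coding genes. Among all protein-coding genes, 6.89% of those with such a divergent neighbour had a reproducible peak and 1.42% of those without. Among the respiratory chain and ATP synthase genes the numbers were 3 of 21 with a divergent neighbour and 4 of 27 without. Summits at 3 of the 7 genes lay in another protein-coding gene's window as well, so the peak cannot be given to 1 gene. That of atp-1 lay also in the window of mcrs-1, which starts 190 bp away, that of cox-14 in that of rde-4, 296 bp away, and that of atp-2 in those of C34E10.10 and C34E10.12. The peaks at nduf-11, cox-5A, cox-5B and asb-2 were in no other protein-coding gene's window. Sharing was counted for reproducible peaks only, so pooled entries counted for a gene may also lie in another gene's window. Without shared summits 4 of the 7 genes kept a peak, against 257 of the 477 among all protein-coding genes. Starts of non-coding genes were not checked, so a peak may lie near one of those as well.

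**Figure D4:**
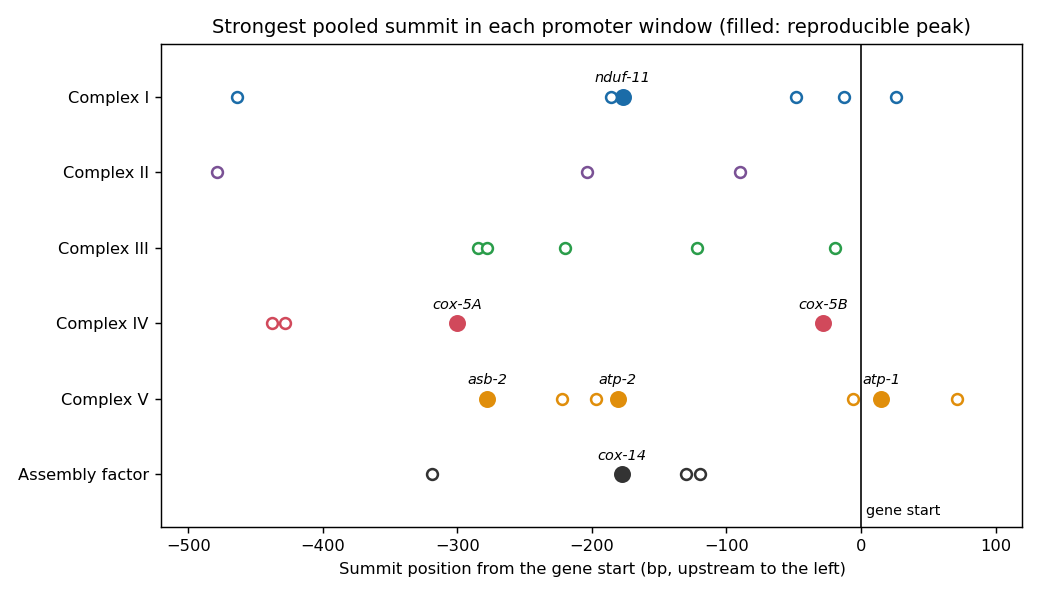
Position of the strongest pooled summit relative to the gene start (bp, upstream to the left) for the genes with a pooled entry, by complex, filled where the summit is a reproducible peak. The filled points lie between 300 bp upstream (cox-5A) and 15 bp downstream (atp-1), and open points are spread over the window.

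Many Caenorhabditis elegans genes are transcribed in operons, where the promoter lies ahead of the first gene. Runs of genes on the same strand at most 200 bp apart were used in place of an operon annotation, a choice made after the data were seen. Of the 48 genes, 11 (22.9%) were not the first of such a run, against 10.2% of all protein-coding genes. A peak in the gene's own window was found at 0 of the 11, against 13 of the 2030 protein-coding genes in that position (0.64%). A peak at the first gene of the run was found for 4 of the 11, against 163 of the 2030 (8.03%). For cyc-2.1 the first gene was rpl-20, with a signal of 209, rank 12 of the list, and the summit was 1057 bp upstream of cyc-2.1. The replicates there had 172 and 37.2. For cox-18 the first gene was Y55F3AR.2, with a signal of 74.3 (49.4 and 24.6 in the replicates) 3067 bp upstream. For nuo-4 it was syf-2, with 37.6 (30.9 and 6.68), and for ucr-11 it was dad-1, with 37.5 (21.7 and 15.6). Counted by the gene's own window or that of the first gene, 11 of the 48 genes had a peak (22.9%), against 3.19% of all protein-coding genes. Complex III, through ucr-11, and cytochrome c then each had 1 gene with a peak.

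Of 36 further genes of the pathway listed by name, 24 were found among the protein-coding genes of the annotation, and 3 of these 24 had a reproducible peak (2.39% of all protein-coding genes) and 10 a pooled entry (25.5% of all). Besides mev-1 these were ant-1.1, which encodes the carrier that exchanges ADP for ATP across the inner membrane, and sco-1, a copper-delivery factor for complex IV. ant-1.1 had 43.7 in replicate 1, 21.0 in replicate 2 and 63.0 pooled, with the summit 27 bp upstream. sco-1 had 47.5, 13.6 and 61.8, with the summit 225 bp upstream. The 7 listed genes for making ubiquinone named coq- and the hydroxylase gene clk-1 had no reproducible peak. The other 12 names are genes of the mitochondrial genome, which had no matching name in the annotation, and none of the 4 lists had an entry on the mitochondrial chromosome. The summit stretches of mev-1 (chrIII:10334084-10334184), ant-1.1 (chrIII:13463086-13463186) and sco-1 (chrII:4299378-4299478), all on the plus strand and with the same words in capitals, are shown for comparison with those above.
mev-1: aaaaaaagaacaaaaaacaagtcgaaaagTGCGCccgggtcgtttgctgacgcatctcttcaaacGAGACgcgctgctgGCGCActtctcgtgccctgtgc
ant-1.1: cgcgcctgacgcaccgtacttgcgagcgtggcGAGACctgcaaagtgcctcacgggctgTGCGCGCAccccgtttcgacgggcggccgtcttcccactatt
sco-1: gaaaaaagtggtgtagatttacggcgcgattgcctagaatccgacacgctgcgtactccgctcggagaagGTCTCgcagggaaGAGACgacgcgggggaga
All 3 hold GTCTC on 1 or both strands, as do 4 of the 7 summits at the chosen genes and 39.7% of all 748 reproducible summits.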

How the data were processed

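ChIP-seq peak lists of 2 biological replicates were used. The deposited lists, per the text files deposited with them, comprise candidates called by the authors with a control alignment on each replicate and on their pool, and peaks thresholded by the irreproducible discovery rate. Which aligner, caller and threshold they used is not given in the sources used here. Values are the authors' signal per entry, deposited on an unstated scale, and the depth is unknown. Lists on ce10 and the control were not used.

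Summits on ce11 were set against Ensembl release 115 gene starts (WBcel235) with Python 3.11.15 and NumPy 2.4.6. SciPy 1.17.1 gave correlations and matplotlib 3.10.9 the plots. The strongest entry per window was kept, and coordinates are 1-based. The window search was tested on simulated positions. With 1 group no test between conditions was made. The genes and lists were chosen with earlier results of these data known. Named genes were those with a reproducible peak, up to 3 per complex with the strongest pooled entry below it, every sdh gene, and listed pathway genes with a peak. Alternatives varied the window, start, list and genes counted.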

Additional observations from a re-analysis of the deposited data

How the results depend on the processing

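Each count is followed by the share of all protein-coding genes under the same setting. The 7 genes with a reproducible peak (2.39%) became 4 with the stronger part of the list, signals at or above its median (1.33%, with asb-2, atp-2 and cox-14 lost). Without summits shared with another protein-coding gene's window they also became 4 (1.29%, with atp-1, atp-2 and cox-14 lost). They became 11 when the first gene of a run also counted, an alternative chosen after the data were seen (3.19%). The strongest 748 entries of 1 replicate gave 6 to 8, with cox-14 lost without replicate 1 (2.12%) and asg-2 gained without replicate 2 (2.31%). The window of 250 bp upstream and 50 bp downstream gave 5 (1.57%; cox-5A and asb-2 lost), that of 1000 and 200 bp gave 8 (3.07%; cox-6A gained), and any transcript start gave 8 (2.5%; cox-6B gained). Assigning each summit to the nearest start gave 7 (2.79%), with cox-6A gained and cox-14 lost, and mev-1 was lost too. Peaks were found in 3 of complexes I to V under every alternative planned, and in 4 with the first gene of a run or with 5 subunits under other names. The 29 genes with a pooled entry (25.5%) became 14 with the strongest 2000 entries (5.23%) and 19 with the smaller window (15.1%). No paired analysis was possible because there was 1 group and no test. With unknown depth, a gene without an entry was not detected, which does not show that it is unbound.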
